A study of Mus musculus with 78 samples.

Results

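Lungs taken after 12 h of sleep deprivation were compared with lungs taken after 9 h. The comparison holds 17 of the 78 arrays of the series, 8 labelled SD 12 h and 9 labelled SD 9 h, chosen by label alone. Each array held the RNA of the lung of a single male C57BL/6J mouse of about 10 weeks, so the arrays of a group are separate animals. All mice had been fed only in the dark for 14 days beforehand and had therefore been without food through the light period. The SD mice were kept awake by gentle handling from lights on, and the SD 12 h mice were taken at lights off. The SS mice, of which 9 were taken at each of these hours, were left to sleep and are used here to set the step from 9 h to 12 h beside that of undisturbed animals. Within the SD mice, 3 more hours awake, 3 more hours without food and the approach of lights off cannot be told apart. Levels are log2 intensities, so that a difference of 1 is a doubling.

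Most cells of the lung carry a circadian clock. In it Clock and Arntl (Bmal1) switch on the Period and Cryptochrome genes through E-boxes, and the proteins of these genes then shut their own transcription down, with Per and Cry transcripts of mouse tissues reaching their peak around and after lights off. Corticosterone, which rises toward the dark phase and with handling, and fasting, which releases the FoxO factors from insulin, act on other sets of genes at the same hours. Immediate early genes such as Nr4a1, Fos and Myc respond within minutes to growth factors and cyclic AMP.

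The tissue of the 17 arrays was lung by its markers. Sftpc, the surfactant protein of alveolar type 2 cells, had a mean level of 13.24 ± 0.05 (SD, n = 8) at SD 12 h and 13.27 ± 0.05 (SD, n = 9) at SD 9 h, and the list of 10 type 2 genes lay between -0.15 and 0.02 of its mean over all arrays in the 17 lungs. Other tissues were present unevenly. A list of 14 T cell genes was at 2.74 relative to all arrays in array 27 (SD 12 h) and at 0.08 or less in the other 16 lungs. The liver list was at 2.61 in array 81 (SD 12 h) and at 2.28 in array 21 (SD 9 h). The skeletal muscle list was highest in array 2 (SD 9 h, 2.35) and array 25 (SD 12 h, 1.59). In tissue homogenates, more cells of a type and more RNA per cell cannot be told apart.

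**Figure D1:**
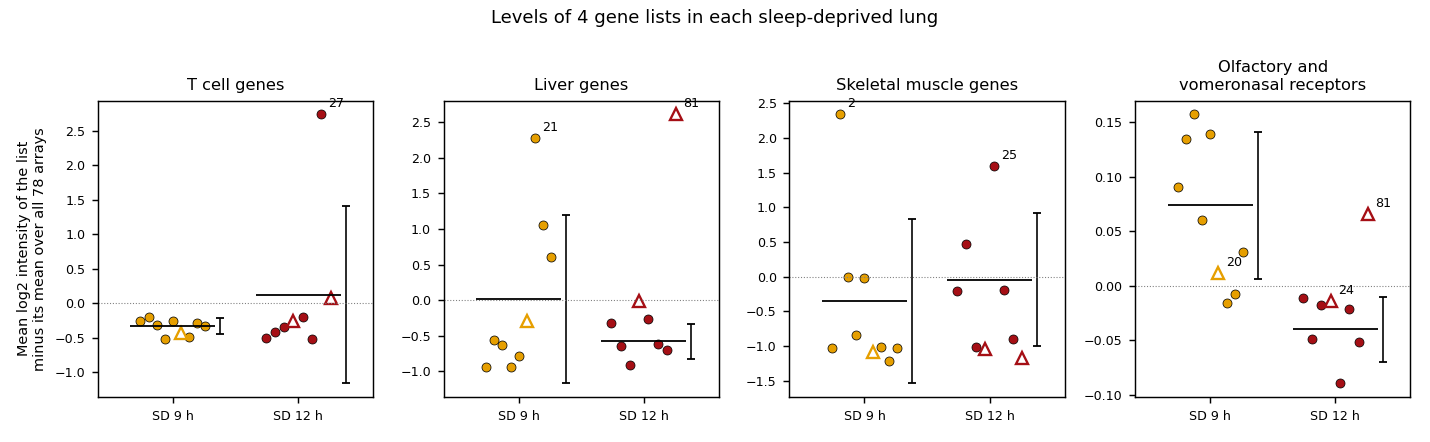
Level of 4 gene lists in each lung (mean log2 intensity of the list minus its mean over all 78 arrays, vertical axes) after 9 h and 12 h of sleep deprivation. Filled circles are arrays, open triangles are arrays 20, 24 and 81, numbers are array numbers, lines and bars show the mean and SD without the triangles. Array 27 stands at 2.74 for T cell genes, and arrays 81 and 21 stand at 2.61 and 2.28 for liver genes.

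A second property of the arrays bears on every result that follows. Each array was compared with the 9 group means over the 200 probe sets that best separated the groups among 62 arrays. The array compared was itself left out of that choice and of the means. All 62, with 14 of the 17 studied here, were nearest to their own group. Expression entered into which arrays make up the 62, so that this is no independent check of their labels. The 16 others stand at the first or last number of a consecutive run of arrays with their own label or, for array 81, out of sequence, and 15 of them were nearest to another group. Of these, 3 belong to the comparison: array 20, labelled SD 9 h, was nearest to SS 12 h, array 24, labelled SD 12 h, was nearest to SD 9 h, and array 81, labelled SD 12 h, was nearest to SS 6 h. In each of the 3 this is the group of the array numbered just before it, and whether labels were shifted by 1 place was not tested. Labels were kept throughout. The main counts are given as labelled and without the 16 arrays, which leaves 6 lungs at SD 12 h and 8 at SD 9 h. Many values of single genes and lists are given without the 16 arrays alone, and several of these were weaker as labelled. Because expression entered into the choice of the 16 arrays, the values without them are not independent of it.

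As labelled, 2 of 18820 genes were higher at SD 12 h than at SD 9 h (0.0106%) and 1 was lower (0.00531%) at an adjusted p under 0.01 from limma, while 3418 genes had an unadjusted p under 0.05. At an adjusted p under 0.05, 168 genes were higher (0.893%) and 126 lower (0.67%). Without the 16 arrays, 234 genes were higher (1.24%) and 148 lower (0.786%) at 0.01. Among these 382 genes were the 3 called as labelled, and all 382 had the same direction in both settings. Leaving out only arrays 20, 24 and 81 gave 119 higher and 62 lower. Without array 27 and the 16 arrays 60 were higher and 24 lower, all of them among the 382. No other lung was left out singly beside the 16. The part of array 27 and that of a smaller SD 12 h group therefore cannot be told apart. With all other arrays kept, leaving out array 27 gave 1 higher and 1 lower, and leaving out array 2, 7 or 25 singly gave 0 and 0.

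The 1155 olfactory and vomeronasal receptor genes, which lung hardly expresses and whose level follows the dim end of each array, moved with the groups. Their mean log2 intensity was 3.90 to 4.0 in the 5 SD 9 h arrays numbered 1 to 5, 3.82 to 3.87 in the 4 SD 9 h arrays numbered 20 to 23, and 3.75 to 3.83 in the SD 12 h arrays other than 81 (3.91). Ribosomal protein genes, at the bright end, were at 10.56 to 10.61 in arrays 1 to 5, at 10.63 to 10.75 in the SD 9 h arrays 20 to 23 and at 10.67 to 10.73 in the SD 12 h arrays. With the receptor level as a covariate, 1 gene was called as labelled (Id3), and without the 16 arrays 12 were higher and 11 lower, all 23 among the 382. Its part in the other calls was not tested.

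Id3, an inhibitor of helix-loop-helix transcription factors, had the smallest p of the rises as labelled. Its log2 intensity ran from 9.79 to 10.11 in the 8 SD 12 h lungs and from 9.38 to 9.75 in the 9 SD 9 h lungs. The groups did not overlap, and arrays 20, 24 and 81 lay inside their labelled groups. Id3 thus differed by 0.36, with an SE of 0.06 and an adjusted p of 0.00328 from limma. It was 0.54 within the lower run of array numbers (1 to 8 and 81) and 0.16 within the higher run (20 to 27). Leaving out arrays 2, 5, 7, 8 or 25 singly took its adjusted p above 0.01, up to 0.0187.

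Eef1b2, a subunit of the translation elongation factor 1 complex, ran from 10.56 to 10.75 at SD 12 h and from 9.99 to 10.64 at SD 9 h, with overlap. It differed by 0.28 (SE 0.05, adjusted p = 0.00446 from limma), by 0.45 within the lower run and by 0.07 within the higher run. The gene that fell was Olfr453, an olfactory receptor, named after its values were seen. It ran from 4.15 to 4.48 at SD 12 h and from 4.49 to 4.94 at SD 9 h, a fall of 0.33 (SE 0.06, adjusted p = 0.00328 from limma). Eef1b2 lost its call without array 27 (adjusted p = 0.0151 from limma) and without arrays 2, 3, 4, 5, 7, 8, 24 or 25 singly, and Olfr453 without arrays 2, 3, 7, 24 or 25 singly, with adjusted p up to 0.0242 and 0.023 from limma. Both lost their call with the receptor covariate, where Eef1b2 differed by 0.23 and Olfr453 by -0.25.

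Just outside the threshold as labelled stood Dcp1a, an mRNA decapping cofactor, with 0.26 (adjusted p = 0.0108 from limma), Zfp36l1, which marks AU-rich mRNAs for decay, with 0.42, Tubb5, a tubulin, with 0.26, and Epn1, an endocytic adaptor, with 0.33. Klf10, a zinc finger repressor induced by TGF-beta, differed by 0.51. On the lower side were Srsy (-0.95), Rnf168 (-0.24), Itpa (-0.23), Bcl7c (-0.31) and Rnf121 (-0.20). Srsy is a multicopy Y-linked gene with 13 probe sets on the array, so its value cannot be given to 1 copy. Rnf168, a ubiquitin ligase of the DNA damage response, did not overlap between the groups: it ran from 9.59 to 9.76 at SD 12 h and from 9.78 to 10.12 at SD 9 h. All 10 genes passed without the 16 arrays, Tubb5 with array 27 as its highest lung at 12.00 and an adjusted p of 0.0421 from limma without array 27 as well. Dcp1a and Bcl7c were also among those that did not pass without array 27 beside the 16 (adjusted p of 0.0112 and 0.0119 from limma). With the receptor covariate, Dcp1a, Epn1 and Bcl7c were among those that fell short (0.0754, 0.0268 and 0.0516).

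As labelled, none of the 10 measured clock repressors and none of 9 clock output factors passed the test, with median differences of 0.07 and 0.13 against -0.01 over all genes. Without the 16 arrays 1 repressor and 1 output factor rose, 9 of 10 and 9 of 9 differences were above 0, and the medians were 0.18 and 0.26. Over all genes 1.24% were called higher in that setting and 47.9% of differences were above 0. The groups then did not overlap for Cry1, Per2, Per3, Tef, Usp2 and Lonrf3, against 2.78% of all genes.

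Cry1, the cryptochrome that represses Clock and Arntl, was the repressor that rose. Among the 14 lungs it ran from 8.04 to 8.30 (median 8.19) at SD 12 h and from 7.40 to 7.97 (median 7.76) at SD 9 h, which is 0.47 apart in the fit with an SE of 0.09 and an adjusted p of 0.00215 from limma. Array 20 stood at 8.38 among the SD 9 h lungs, and array 81 at 6.84 among the SD 12 h lungs. As labelled the difference was 0.13 (SE 0.16, adjusted p = 0.695 from limma). Without array 27 as well, the adjusted p was 0.0103 from limma.

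Per2, a partner of Cry1 in repression, ran from 9.72 to 9.83 at SD 12 h and from 9.18 to 9.51 at SD 9 h among the 14 lungs, with array 20 at 9.99 and array 81 at 8.37. Its difference of 0.39 (SE 0.11) did not pass (adjusted p = 0.0175 from limma). Per3 differed by 0.19, Cry2 by 0.17 and Per1, the Period gene that glucocorticoids also induce, by 0.23, none past the threshold. Among the remaining repressors, Bhlhe40 (Dec1) differed by 0.27, Bhlhe41 (Dec2) by 0.07, Ciart by 0.06, Nr1d2 by -0.09 and Timeless by 0.11.

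Lonrf3, a ring finger gene listed with the clock outputs, rose by 0.68 (SE 0.12, adjusted p = 0.000985 from limma) without the 16 arrays. It ran from 8.19 to 8.77 at SD 12 h and from 7.67 to 8.07 at SD 9 h. Usp2, a deubiquitinase, differed by 0.43, Nfil3, which binds D-boxes as a repressor, by 0.36, the D-box activators Tef and Hlf by 0.26 and 0.08, and Wee1, a kinase that delays mitosis, by 0.23. Pdk4, which spares glucose in fasting, differed by 0.67 with a wide SE of 0.32, Tspan4 by 0.15 and Fmo2 by 0.03.

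Both clock genes that passed hold an E-box close upstream of their start. The bases before the start are given from RefSeq (GRCm38.p6), with the E-box in capitals, because both genes moved together.

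Cry1, chr10:85185055-85185304, minus strand: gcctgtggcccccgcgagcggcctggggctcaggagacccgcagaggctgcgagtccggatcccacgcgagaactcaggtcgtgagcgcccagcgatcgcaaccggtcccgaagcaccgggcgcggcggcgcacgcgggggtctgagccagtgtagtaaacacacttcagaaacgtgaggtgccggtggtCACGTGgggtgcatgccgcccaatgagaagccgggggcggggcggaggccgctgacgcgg

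Lonrf3, chrX:36328159-36328408, plus strand: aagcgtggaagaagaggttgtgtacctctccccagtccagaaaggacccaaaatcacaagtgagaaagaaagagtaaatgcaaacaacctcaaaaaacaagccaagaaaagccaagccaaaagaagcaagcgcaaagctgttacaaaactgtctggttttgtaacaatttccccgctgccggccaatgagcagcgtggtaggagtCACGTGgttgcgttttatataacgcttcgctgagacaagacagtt

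The E-box begins 60 bases before the start of Cry1 and 45 before that of Lonrf3. RefSeq windows from 250 bases before to 50 after a start were matched to 14749 of the 18820 genes, and the letters CACGTG, which read the same on both strands, stood in 9.57% of them. They stood in 4 of 8 clock repressors with a window (Bhlhe41, Ciart, Cry1 and Per1) and in 3 of 8 clock output factors (Lonrf3, Tef and Tspan4). They were found for 13.6% of the 191 higher genes and 18.5% of the 124 lower genes with a window. The D-box TTATGNAA stood in 3.14% and 4.03% of these against 3.59% of all, and the cyclic AMP element TGACGTCA in 3.14% and 2.42% against 2.77%. The Ror element, AGGTCA after a pair of A or T, stood in 2.62% of the higher, 8.06% of the lower and 3.28% of all genes. Both strands were read, and these shares are a description of letters in a window.

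**Figure D2:**
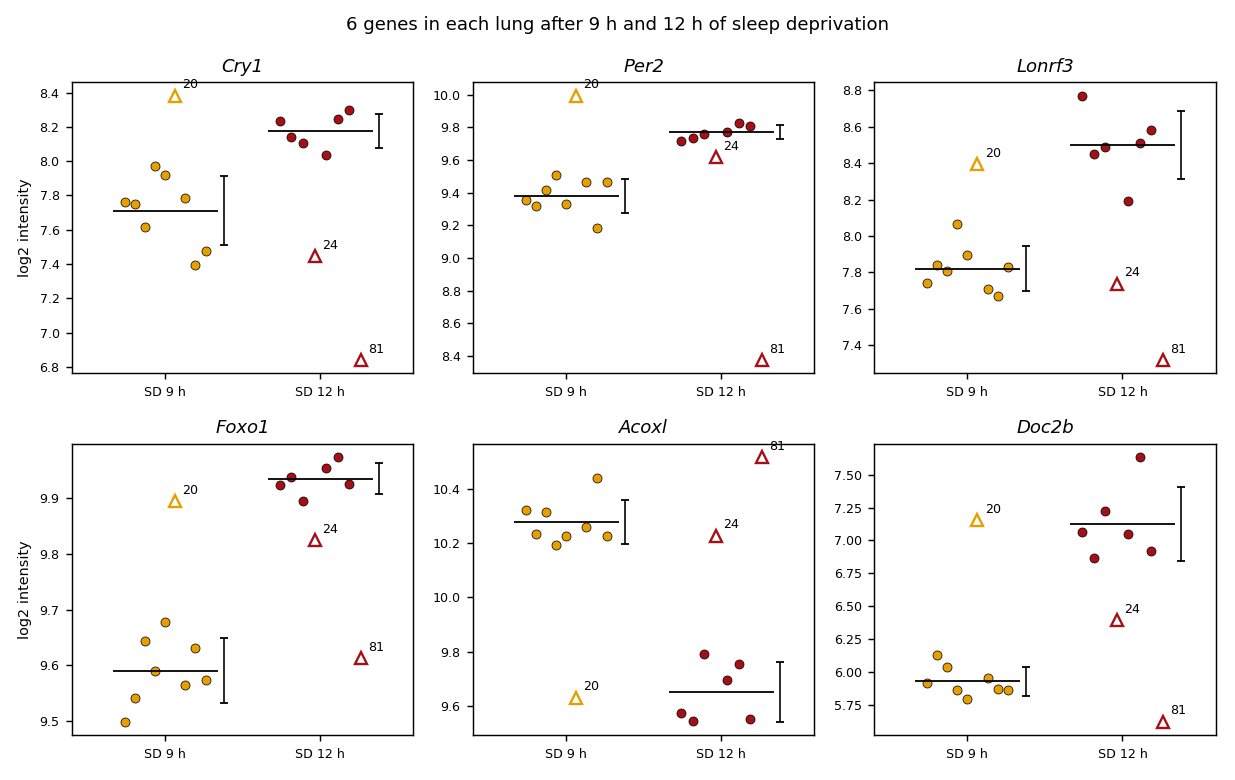
Log2 intensity (vertical axes) of 6 genes in each lung after 9 h (orange) and 12 h (dark red) of sleep deprivation. Open triangles are arrays 20, 24 and 81, and lines and bars show the mean and SD of the other 8 and 6 lungs. In Cry1, Lonrf3 and Acoxl, array 20 lies at or beyond the level of the SD 12 h lungs, and arrays 24 and 81 at or beyond that of the SD 9 h lungs.

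The activators did not move as a set. Of the 5 measured activators and Ror partners none passed in either setting, and the median difference without the 16 arrays was -0.02. Npas2, the Clock homologue, differed by 0.32, Arntl by 0.27, Clock by -0.04, Rora by -0.02 and Rorb by -0.07. When array 27 was left out as well, Arntl differed by 0.097. Of the 3 cold-inducible RNA-binding proteins, which rise when tissue cools, none passed: Cirbp differed by -0.19, Srsf5 by -0.30 and Rbm3 by 0.14.

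Outside the clock lists, genes with large changes without the 16 arrays also turned on arrays 20, 24 and 81. Doc2b, a calcium sensor of vesicle fusion, ran from 6.86 to 7.63 at SD 12 h and from 5.80 to 6.13 at SD 9 h, with array 20 at 7.15. It rose by 1.19 (SE 0.16, adjusted p = 6.58e-06 from limma). Acoxl, an acyl-CoA oxidase-like gene, ran from 9.54 to 9.79 at SD 12 h and from 10.19 to 10.44 at SD 9 h, with array 20 at 9.63 and array 81 at 10.52. It fell by 0.63 (SE 0.07, adjusted p = 2.71e-08 from limma). Without the 16 arrays, Doc2b differed by 1.1 and 1.3 within the lower and higher run, and Acoxl by -0.62 and -0.64. With all arrays these values were 0.74 and 0.79 for Doc2b and -0.40 and -0.33 for Acoxl. The 2 genes were chosen for their large changes on these same arrays, so the runs are no independent check. Neither passed as labelled, where Doc2b differed by 0.78 and Acoxl by -0.37 (adjusted p of 0.0462 and 0.0705 from limma).

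The other large rises without the 16 arrays were Fam107a, an actin-bundling stress gene that glucocorticoids induce (0.74), Hif3a (0.76), Ifi205 of the interferon-induced p200 family (0.81), Cstb, an inhibitor of cathepsins (0.67), Dynlrb2, a dynein light chain of cilia (0.72), and Scgb1a1, the secretoglobin of club cells (0.68). Scgb1a1 differed by 0.93 in the lower run of array numbers and 0.22 in the higher with all arrays, and its values of 11.39 to 13.12 at SD 9 h spanned those of 12.87 to 13.06 at SD 12 h. It was the 1 club cell gene of 9 and Dynlrb2 the 1 ciliated cell gene of 12 that passed, where 1.24% of all genes were called higher. The medians of these lists were 0.09 and -0.02. Both calls were lost without array 27 beside the 16 (adjusted p of 0.0108 and 0.0107 from limma) and with the receptor covariate (0.128 and 0.161), as were those of Cstb (0.0172 and 0.167). Ifi205 lost its call with the covariate (0.173), and Hif3a did so as well, while Fam107a kept it in both settings. With all arrays as labelled, Fam107a differed by 0.32 and did not pass (adjusted p = 0.602 from limma).

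The falls without the 16 arrays covered many functions. Gja5, connexin 40 of arterial endothelium, fell by 0.51 (SE 0.09), Spon2, a matrix protein, by 0.59, Scn3a, a sodium channel, by 0.56, St6galnac3, a sialyltransferase, by 0.46, and Neurl3, a ubiquitin ligase, by 0.46. Abca17 fell by 0.46. Neither Gja5 (-0.27) nor Abca17 (-0.29) passed as labelled (adjusted p of 0.332 and 0.079 from limma). Ncbp2 of the cap-binding complex and Gar1 of the H/ACA small nucleolar particle fell by 0.48 and 0.46. Of 15 endothelial genes, Gpihbp1, which holds lipoprotein lipase on capillaries, was the 1 that passed, with a rise of 0.38, and the list's median was -0.05. Lpcat1, which makes the surfactant lipid of type 2 cells, fell by 0.22 as the 1 of 10 type 2 genes that passed. These counts stand beside 1.24% of all genes called higher and 0.786% lower. Gpihbp1, Lpcat1, Scn3a and Gar1 passed neither without array 27 beside the 16 nor with the receptor covariate, Spon2 did not without array 27, and Neurl3 and Ncbp2 did not with the covariate.

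**Figure D3:**
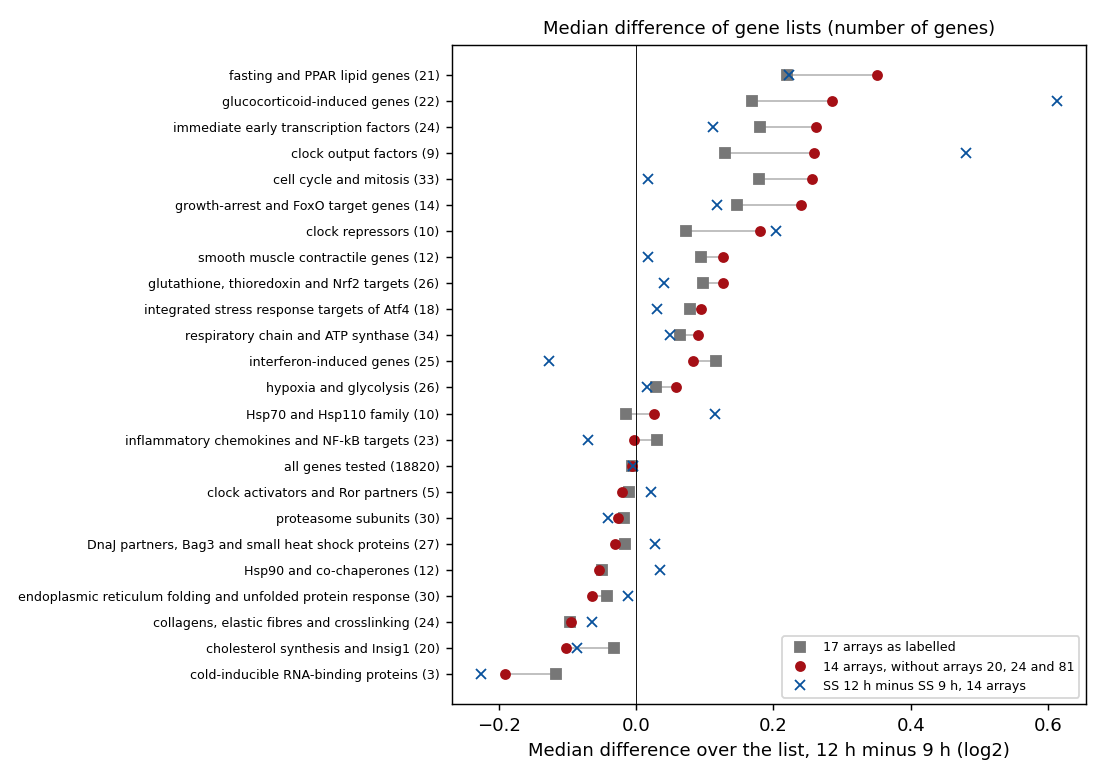
Median log2 difference from 9 h to 12 h (horizontal axis) over each pathway list, with the number of measured genes in brackets, in SD mice as labelled (grey squares), in SD mice without arrays 20, 24 and 81 (red circles) and in SS mice without the doubted arrays (blue crosses). Fasting, glucocorticoid and immediate early lists lie highest in the red circles, at 0.35, 0.29 and 0.26, with the clock output and cell cycle lists also at 0.26. In the grey squares the cell cycle list, at 0.18, lies above the glucocorticoid list, at 0.17.

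Of 24 measured immediate early genes, 21 differences were above 0 in either setting, and the median was 0.18 as labelled and 0.26 without the 16 arrays, against -0.01 over all genes in both. None passed as labelled and 3 rose without the 16 arrays. Nr4a1, an orphan nuclear receptor, rose by 1.06 (SE 0.20, adjusted p = 0.00149 from limma), Myc by 0.58 and Zfp36, which destabilises cytokine mRNAs, by 0.33. Nr4a1 ran from 8.74 to 10.09 (median 9.62) at SD 12 h and from 8.09 to 8.62 (median 8.39) at SD 9 h among the 14 lungs, with no overlap and a wide spread at 12 h. All 3 fell short with the receptor covariate (adjusted p of 0.0323 for Nr4a1, 0.252 for Myc and 0.122 for Zfp36 from limma), and Myc and Zfp36 also without array 27 beside the 16 (0.027 and 0.0119). Over all genes 1.24% were called higher. Fos differed by 0.57, Egr1 by 0.52 and Ier2 by 0.38, all short of the threshold and named after their values were seen.

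Glucocorticoid-induced genes were all higher in sign without the 16 arrays, with a median of 0.29 over 22 genes, and 3 passed. Hif3a ran from 7.19 to 7.44 at SD 12 h and from 6.27 to 6.77 at SD 9 h, and rose by 0.76 (SE 0.13, adjusted p = 0.000597 from limma). Angptl4, an inhibitor of lipoprotein lipase that also belongs to the fasting list, rose by 0.56, and Glul, glutamine synthetase, by 0.28. Fkbp5, a co-chaperone that dampens the receptor, named after its values were seen, differed by 0.59 and did not pass (adjusted p = 0.0132 from limma). With the receptor covariate none of the 3 passed (adjusted p of 0.0175 for Hif3a, 0.122 for Angptl4 and 0.0516 for Glul from limma), and without array 27 beside the 16 Angptl4 and Glul did not (0.0172 and 0.0143). Over all genes 1.24% were called higher. As labelled, with array 81 the lowest SD 12 h lung for Angptl4, Glul and Hif3a, the median was 0.17 and none passed.

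The fasting and PPAR list had the highest median of the pathway lists, 0.35 over 21 genes without the 16 arrays and 0.22 as labelled, but Angptl4 was the 1 gene that passed. The list of 17 brown and white fat genes was at -0.77 to 0.89 relative to all arrays at SD 12 h and at -1.23 to 0.27 at SD 9 h, so that the groups overlapped, and none passed as labelled, without the 16 arrays or without array 27 as well. Its median difference was 0.51 as labelled, 0.73 without the 16 arrays and 0.40 with the receptor covariate added. The part of fat tissue in the lipid genes was not tested. Of 14 growth-arrest and FoxO target genes 12 were above 0 without the 16 arrays, with a median of 0.24, and 3 rose. Over all genes 47.9% of differences were above 0 and 1.24% were called higher. Foxo1 itself ran from 9.89 to 9.97 at SD 12 h and from 9.5 to 9.68 at SD 9 h, a rise of 0.34 (SE 0.05, adjusted p = 0.000108 from limma), Foxo3 rose by 0.25 and Klf10 by 0.64 (SE 0.10, adjusted p = 0.000184 from limma). Foxo1 and Klf10 also passed with the receptor covariate and without array 27 beside the 16, and Foxo3 passed in neither (adjusted p of 0.1 and 0.0132 from limma). None of the 14 passed as labelled, where Foxo1 differed by 0.26 and Foxo3 by 0.14 (adjusted p of 0.0111 and 0.477 from limma).

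In the endoplasmic reticulum list of 30 folding genes, 10 differences were above 0 without the 16 arrays, with a median of -0.06. Pdia6, a disulfide isomerase, fell by 0.34 (SE 0.07), Dnajb11, a cofactor of BiP, fell by 0.30, and Herpud1, which serves the degradation of misfolded proteins, rose by 0.18. All 3 calls were lost without array 27 beside the 16 (adjusted p of 0.0119, 0.0292 and 0.0119 from limma) and with the receptor covariate (0.0485, 0.173 and 0.163), and 3 of 30 stands beside 1.24% of all genes called higher and 0.786% lower. Hspa5 (BiP) differed by -0.11 and Hsp90b1 by -0.21, neither past the threshold and both named after their values were seen. No gene passed among 10 of the Hsp70 and Hsp110 family, 12 Hsp90 partners and 27 DnaJ, Bag3 and small heat shock genes, and their medians lay between -0.05 and 0.03.

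Single genes passed in other lists without the 16 arrays. Sesn2, a stress-induced inhibitor of mTORC1, rose by 0.57 among 18 Atf4 targets, Gpx3, a secreted glutathione peroxidase, by 0.34 among 26 antioxidant genes, Lox, the collagen crosslinking oxidase, by 0.50 among 24 matrix genes, and Uqcrc1 of respiratory complex III by 0.47 among 34 respiratory genes. Hsd17b7 of cholesterol synthesis fell by 0.42 in a list of 20 in which 6 differences were above 0, Psma3 of the proteasome by 0.33 in a list of 30, and Ccnd1, cyclin D1, by 0.29. Over all genes 1.24% were called higher and 0.786% lower. All of these but Ccnd1 lost the call without array 27 beside the 16 (adjusted p from 0.0108 for Uqcrc1 to 0.0372 for Psma3 from limma), and all lost it with the receptor covariate (from 0.0111 for Ccnd1 to 0.203 for Gpx3). None passed among 23 inflammatory, 25 interferon-induced, 26 hypoxia and glycolysis and 12 smooth muscle genes.

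The cell cycle, T cell and thymus and lymph node lists rested on array 27. Those of B cells and NK cells did not, with medians of -0.03 and -0.08 without the 16 arrays and -0.0007 and -0.08 without array 27 as well. Of 33 cell cycle genes, 32 were above 0 without the 16 arrays, with a median of 0.26, which was 0.02 without array 27 as well. The median of 14 T cell genes went from 0.49 to -0.08 and that of 12 thymus and lymph node genes from 0.40 to -0.02. None of these T cell or lymph node genes passed in either setting. The squamous epithelium list had a median of 0.70 without the 16 arrays and none passed, with array 25 at 2.36 relative to all arrays, and with the receptor covariate added its median was -0.01. The liver list had a median of -0.15 as labelled and -0.72 without the 16 arrays, with none of 25 passed.

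The same step was then read in sleeping mice, which share no array with the SD mice. Without the 16 arrays 707 genes (3.76%) differed between SS 12 h and SS 9 h, and 108 of them were also among the 382 of the SD step, 28.3% of the SD genes and 15.3% of the SS genes. All 108 had the same direction in both. Acoxl fell by 0.60 in SS and 0.63 in SD mice, Doc2b rose by 1.35 and 1.19, Lonrf3 by 0.69 and 0.68, Gja5 fell by 0.45 and 0.51, and Cry1 rose by 0.74 and 0.47. The glucocorticoid list had a median of 0.61 in SS and 0.29 in SD mice, and the clock outputs 0.48 and 0.26.

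**Figure D4:**
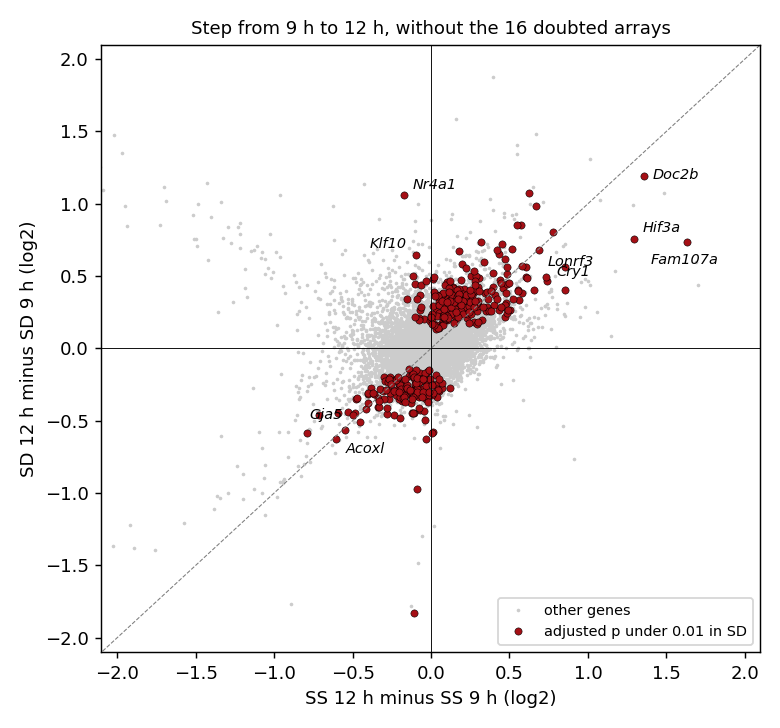
Log2 difference from 9 h to 12 h in SS mice (horizontal axis) and in SD mice (vertical axis) for each gene without the 16 arrays. Red circles are the 382 genes past an adjusted p of 0.01 in SD mice, grey dots the others, the dashed line marks equal steps, and 14 genes lie outside the axes. Doc2b, Lonrf3 and Acoxl lie near the dashed line, and Nr4a1 and Klf10 near 0 on the horizontal axis.

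Whether the step differed between SD and SS mice was tested as an interaction. As labelled no gene passed, although 1939 had an unadjusted p under 0.05 by limma. The 5 named genes with the smallest p were Id3 (0.42, SE 0.09), Fzd8, a Wnt receptor (-0.44), Irf7, the interferon regulatory factor (0.52), Dusp5, a phosphatase of ERK (0.53), and Traf3ip1, a ciliary transport protein (-0.36), with adjusted p from 0.143 to 0.15. Without the 16 arrays 6 genes passed (0.0319%). For Dusp5 the steps differed by 0.70, with 0.31 in SD mice and -0.39 in SS mice. Klf10, with 0.74 (adjusted p = 0.0187 from limma), and Nr4a1, with 1.24 (adjusted p = 0.046 from limma), did not pass.

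In the other 5 the step was larger in SS mice. Bcl2l1, which encodes the survival protein Bcl-xL, ran from 9.23 to 9.68 at SS 9 h and from 9.99 to 10.28 at SS 12 h, against 9.81 to 10.34 at SD 9 h and 9.88 to 10.23 at SD 12 h. Its steps differed by -0.69 (SE 0.11, adjusted p = 0.00101 from limma). Fas, the death receptor, had a median of 9.22 at SS 9 h, 9.82 at SS 12 h, 9.76 at SD 9 h and 9.86 at SD 12 h, and its steps differed by -0.58. In both genes SD lungs at 9 h lay apart from SS lungs at 9 h and overlapped the range of SS lungs at 12 h. The steps of Atp7b, a copper transporter, differed by -0.49, those of Dock5 by -0.30 and those of Mettl21e by -1.26. For Atp7b the SD 9 h lungs, at 9.36 to 9.54, lay below the SS 12 h lungs, at 9.68 to 9.94. Without array 27 as well, 3 genes passed.

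**Figure D5:**
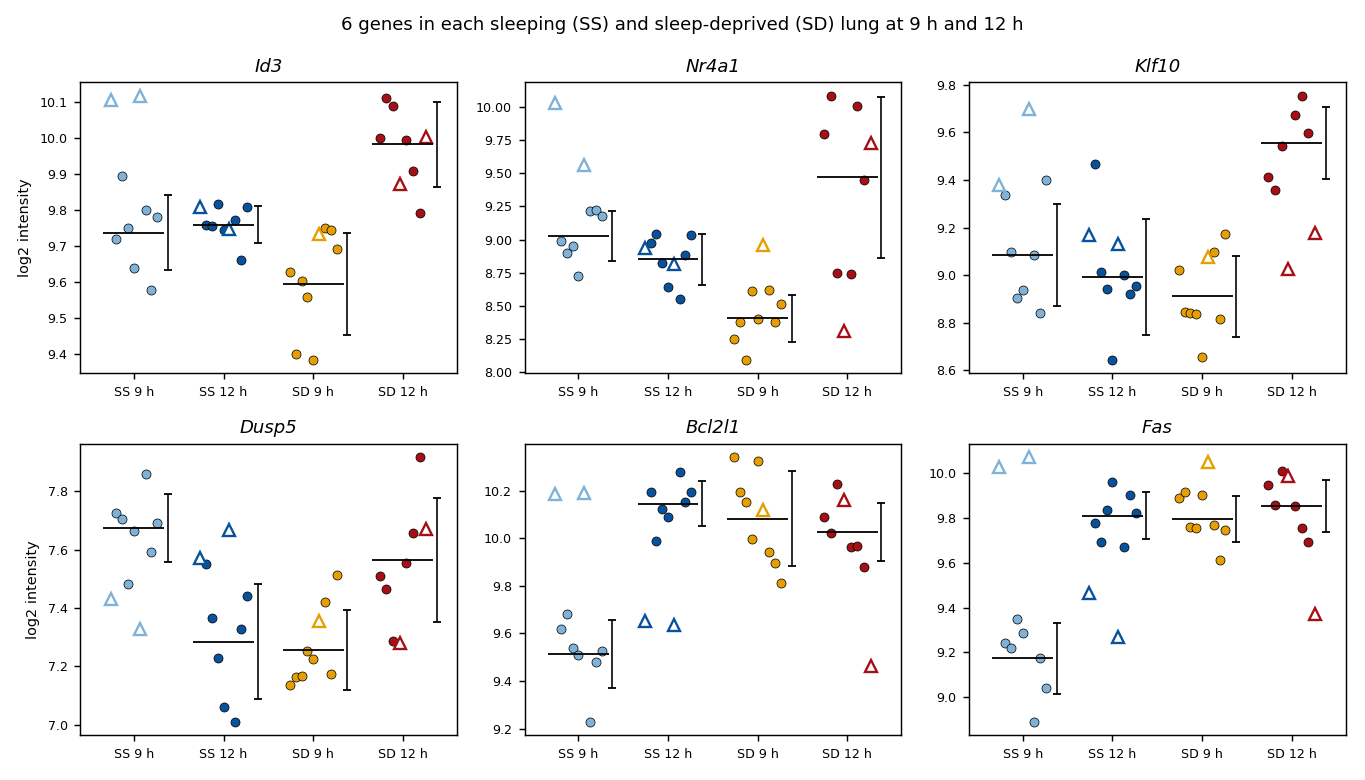
Log2 intensity (vertical axes) of 6 genes in each SS and SD lung at 9 h and 12 h. Open triangles are arrays among the 16 left out, and lines and bars show the mean and SD of the others. Bcl2l1 and Fas are low at SS 9 h alone apart from triangles, and Id3, Nr4a1 and Klf10 are highest on average at SD 12 h.

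The spread between mice was compared last. By limma on absolute deviations from the group median, no gene passed, with 487 genes wider and 245 narrower at SD 12 h at an unadjusted p under 0.05. Without array 27 these were 255 and 266, and without arrays 20, 24, 27 and 81 they turned to 127 wider and 438 narrower, with none passed in either. By Bartlett's test 116 were wider and 4 narrower at an adjusted p under 0.01, and without the same 4 arrays 36 and 3, with 590 wider and 1034 narrower at an unadjusted p under 0.05. The median ratio of the SDs of 12 h and 9 h was 1.04 as labelled and 0.918 without arrays 20, 24, 27 and 81, and the 5 genes with the smallest p by limma were Kcnj5, Sptb, Hjv, Pla2g2d and Palld. Kcnj5, a potassium channel, ran from 5.74 to 7.13 at SD 12 h and from 6.00 to 6.31 at SD 9 h.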

How the data were processed

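Total RNA of each lung was hybridised to a Mouse Gene 1.0 ST array. The authors read the probe intensities with R/oligo and normalised all lung arrays together by robust multi-array average (RMA), which gives log2 intensities. In the deposited table these log2 values lack their decimal point, and it was restored (range 2.27 to 13.85). Names came from the platform annotation: 18820 genes, each by its brightest probe set of 1 symbol. Of 21218 probe sets with 1 symbol, 21185 matched RefSeq by Entrez ID and no symbol needed updating. Groups follow the labels.

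A model with 1 mean for each of 9 groups was fitted over 78 arrays and 35556 probe sets (limma 3.58.1, R 4.3.3), with Benjamini-Hochberg adjustment over all probe sets and a threshold of 0.01. Genes named are the 10 largest called changes each way, leaving out predicted and receptor genes (where fewer pass, those and the 5 smallest p each way), all clock and cold-inducible genes, up to 3 called genes of each list, and the 5 smallest p of the interaction and of spread. The same rule without the 16 arrays, and the settings with the receptor covariate or without array 27 beside the 16, were added after seeing the data. The members and lists were chosen with earlier results of these data known. The fits were tested on simulated data. The number of arrays limits the precision, and no depth applies to arrays.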

Additional observations from a re-analysis of the deposited data

Results flagged for a closer look

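In 50 of 200 gene or list values tested within a group, 1 lung stood far from the others. Chance gives about 5% for values not chosen by their pattern, but many of these genes were named because their difference was large without arrays 20, 24 and 81, so the 5% is no measure for them. Array 81 gave 24 of these, array 20 gave 16 and array 27 gave 6. Among the SD 12 h lungs, array 81 had the lowest log2 intensity of Angptl4 (8.48), Atp7b (8.93), Bcl2l1 (9.46), Cry2 (9.47), Fam107a (7.68), Foxo1 (9.61), Foxo3 (9.22), Glul (11.53), Herpud1 (11.17), Hif3a (5.54), Hlf (8.57), Ifi205 (8.16), Mettl21e (4.98), Per1 (9.35), Per2 (8.37), Per3 (9.23), Tef (9.33), Tspan4 (10.14), Wee1 (8.63). It had the highest of Gja5 (9.51), Neurl3 (7.88), Scn3a (7.97), Spon2 (7.65), and the highest liver list level (2.61 relative to all arrays). Among the SD 9 h lungs, array 20 had the highest log2 intensity of Atp7b (9.99), Cry2 (10.14), Doc2b (7.15), Foxo1 (9.90), Hif3a (7.36), Per2 (9.99), Per3 (10.13), Tef (10.05), Usp2 (9.23). It had the lowest of Abca17 (5.77), Acoxl (9.63), Arntl (5.58), Ccnd1 (11.05), Hsd17b7 (8.11), Pdia6 (9.52), and the highest neutrophil list level (0.93). Array 27 (SD 12 h) had the highest level of the T cell list (2.74), the thymus and lymph node list (1.95) and the cell cycle list (1.28), the highest log2 intensity of Timeless (6.33), Tubb5 (12.00) and the lowest of Traf3ip1 (8.08). Single values stood apart for Olfr453 in array 25 (4.15), Fmo2 in array 22 (12.44), Fzd8 in array 23 (8.59) and the skeletal muscle list in array 2 (2.35).

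Without the 16 arrays the step from 9 h to 12 h differed between SD and SS mice in 6 genes by the interaction test of limma. The step in SD minus the step in SS was -0.69 for Bcl2l1, 0.70 for Dusp5, -0.49 for Atp7b, -0.58 for Fas, -0.30 for Dock5 and -1.26 for Mettl21e. As labelled no gene passed this test.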

How the results depend on the processing

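Numbers of genes higher and lower at SD 12 h, 2 and 1 as labelled, depended on the setting. They were 234 and 148 without the 16 arrays, 119 and 62 without arrays 20, 24 and 81, 226 and 146 with array weights, and 168 and 126 at an adjusted p under 0.05. They were 1 and 1 without array 27, 4 and 2 with a block for the 4 number runs, 1 and 0 with array medians subtracted, 2 and 0 among genes with a mean log2 intensity of at least 6, 0 and 0 in a fit on the 17 arrays, and 1 and 0 with the receptor covariate. Without the 16 arrays they were 60 and 24 when array 27 was also left out, 12 and 11 with the receptor covariate, and 231 and 145 with the block. Within runs they were 31 and 38 in the lower and 0 and 0 in the higher. With 1 of the 17 SD mice left out they ran from 0 to 62 higher and from 0 to 38 lower, both highest without array 20. In the lower and higher run, 381 and 378 of the 382 genes called without the 16 arrays had the same sign, arrays on which they had been chosen. The count for the interaction, 0 as labelled, was 6 without the 16 arrays and 3 when array 27 was also left out. It was 0 with any 1 of the 17 SD lungs left out, and no SS lung was left out singly. The count for spread, 0 by limma, was 120 by Bartlett's test and 0 with any 1 mouse left out. No called difference of a named gene changed sign under an alternative. The cause of these changes was not tested. No paired analysis was possible because every array number is used once, so that the groups share no replicate number. Weak signals near background limit what the array can show for receptor and other dim genes.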
